A study of Homo sapiens with 32 samples.

Results

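Transcripts of 8 genes that respond to DNA damage were followed through all 32 libraries of the series: GDF15, GADD45A, GADD45B, GADD45G, BTG1, BTG2, PLK2 and PLK3. They were chosen by name, as members of 4 families of damage responders, with earlier results of these data known. They are 8 of the 60107 genes in the count table. The study asked how genotoxic conditions change protein aggregation, and RNA was collected beside protein from the same cells of 2 human lines, HEK293T (embryonic kidney, carrying the SV40 large T antigen, which binds p53) and U2OS (osteosarcoma). Libraries were made with the QuantSeq 3′ mRNA method, which takes 1 fragment from the 3′ end of a transcript, so long and short transcripts are counted alike. The conditions were camptothecin (CPT), a poison of topoisomerase 1, an inhibitor of the damage kinase ATM (KU-55933), and knockout of ATM, with 4 libraries on each side of each comparison. DMSO, CPT and the inhibitor were given for 24 h, and the cells then recovered for 48 h. Wild-type and ATM KO U2OS cells were grown for 72 h. For the experiments run beside these libraries, the study's methods give CPT at 0.1 μM for HEK293T, CPT at 0.4 μM for U2OS and KU-55933 at 9 μM. The ATM KO line was made with CRISPR/Cas9 and repair-template plasmids, and clones were picked. Whether the libraries come from 1 clone is not given in the sources used here.

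GDF15 is a secreted, stress-induced cytokine of the TGF-β superfamily, which signals through GFRAL and RET. GADD45A, GADD45B and GADD45G are small acidic proteins that bind MAP3K4, CDK1 and PCNA and are induced by growth arrest and DNA damage. BTG1 and BTG2 are antiproliferative adaptors that bind the CCR4-NOT deadenylase and PRMT1, and PLK2 and PLK3 are Polo-like kinases that are induced by stress. p53 is known to activate GDF15, GADD45A, BTG2 and PLK2, while the ATF4 branch of the integrated stress response is another known inducer of GDF15.

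For libraries 1 to 17, the expression profile and the deposited label named different cell lines in 14 cases. Summed over 6 markers of U2OS cells (CAV1, CD44, ANXA1, LGALS1, S100A6, CLU), 16 libraries lay between 2363 and 5833 counts per 1000000 (CPM) and 16 between 59.5 and 251.05. Summed over 6 markers of HEK293T cells (LIN28B, ZIC2, ZIC5, PAX2, CKB, NEFM), the same sets lay between 44.6 and 105 CPM and between 805 and 1490 CPM. Libraries 2 to 8 are labelled HEK293T and had the U2OS profile, and libraries 10 to 16 are labelled U2OS and had the HEK293T profile. They were therefore compared by number. Libraries 10, 12, 14 and 16 (labelled U2OS ATM KO) were set against 11, 13, 15 (labelled U2OS wild type) and 17 (labelled HEK293T DMSO), and this comparison is called HEK293T CPT by number. Libraries 2, 4, 6 and 8 (labelled HEK293T CPT) were set against 1 (labelled U2OS wild type), 3, 5 and 7 (labelled HEK293T DMSO), and this comparison is called U2OS ATM KO by number. In both, the even-numbered libraries carry a treated or knockout label and the odd-numbered ones a control label, but the condition itself rests on the regrouping. The level of ATM itself did not settle it. It was 55.7 ± 12.8 CPM (SD, n = 4) in libraries 2, 4, 6 and 8 and 67.5 ± 5.55 CPM in libraries 1, 3, 5 and 7 (adjusted p = 0.255), and a 3′ tag need not lie in the edited part of the gene. U2OS CPT (libraries 26 to 29 against DMSO 30 to 33) and the HEK293T ATM inhibitor (18 to 21 against DMSO 22 to 25) matched the cell line of their labels. Libraries 18 to 21 are labelled ATM KO and are taken as the inhibitor, the condition the study describes for RNA of HEK293T cells. Library depth was 1232674 to 6362433 counts assigned to genes (median 3359464). A detection floor of 3 counts therefore lay between 2.549 and 0.4287 CPM, and it covers counting error only.

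In the GENCODE 29 annotation (GRCh38), GDF15 lies at chr19:18374731-18389176 and GADD45B at chr19:2476122-2478259, both on the plus strand. GADD45A lies at chr1:67685061-67688338, BTG2 at chr1:203305491-203309602 and PLK3 at chr1:44800225-44805990, all on the plus strand. GADD45G lies at chr9:89605013-89606555 on the plus strand, BTG1 at chr12:92140278-92145897 on the minus strand and PLK2 at chr5:58453982-58460260 on the minus strand. GDF15 overlaps MIR3189 on its own strand, BTG1 overlaps LINC01619 on its own strand and AC025164.1 on the other, and PLK3 overlaps TCTEX1D4 on the other strand. Where the overlapping gene lies on the same strand, as for GDF15 and BTG1, strand would not separate the reads. Whether counting used strand is not given in the sources used here. Reads of BTG1 and PLK3 therefore cannot be told apart from those of the genes on the other strand either.

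The promoters of 4 members are shown because GDF15 and BTG2 were higher in both CPT comparisons, whereas GADD45B and PLK2 differed between the lines. RefSeq promoters (GRCh38.p14) matched 7 of the 8 members. Each sequence is the 250 bases before the RefSeq start, 5′ to 3′ on the gene's own strand. They come from chr19:18385908-18386157 (GDF15, plus), chr19:2475877-2476126 (GADD45B, plus), chr1:203305269-203305518 (BTG2, plus) and chr5:58460087-58460336 (PLK2, minus). Capitals mark matches on either strand to the TATA box (letters TATAAA), the CCAAT box, the E-box (letters CACGTG) and the core of the cAMP response element (letters TGACG).
GDF15: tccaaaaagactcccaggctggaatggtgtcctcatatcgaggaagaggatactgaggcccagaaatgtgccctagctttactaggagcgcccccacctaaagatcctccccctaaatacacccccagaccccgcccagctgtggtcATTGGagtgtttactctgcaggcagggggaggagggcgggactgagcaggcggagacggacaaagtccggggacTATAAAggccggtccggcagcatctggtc
GADD45B: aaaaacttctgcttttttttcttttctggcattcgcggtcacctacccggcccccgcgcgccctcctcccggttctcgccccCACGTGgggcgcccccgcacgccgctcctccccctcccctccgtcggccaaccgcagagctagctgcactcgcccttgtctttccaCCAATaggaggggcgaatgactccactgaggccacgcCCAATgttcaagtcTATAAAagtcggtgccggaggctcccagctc
BTG2: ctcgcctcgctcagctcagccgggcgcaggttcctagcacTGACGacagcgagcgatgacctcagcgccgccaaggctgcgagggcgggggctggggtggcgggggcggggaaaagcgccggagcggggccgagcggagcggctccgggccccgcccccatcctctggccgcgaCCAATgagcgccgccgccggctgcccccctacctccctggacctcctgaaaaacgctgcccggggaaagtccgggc
PLK2: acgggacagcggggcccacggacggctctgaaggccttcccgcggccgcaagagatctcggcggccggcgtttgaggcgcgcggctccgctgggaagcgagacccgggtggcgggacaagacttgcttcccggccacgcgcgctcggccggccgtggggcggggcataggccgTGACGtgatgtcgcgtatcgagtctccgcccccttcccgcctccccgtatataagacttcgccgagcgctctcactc
Of 35116 promoters of the same length, 10.7% hold TATAAA, 32% CCAAT, 6.34% CACGTG and 21.2% TGACG. The letters TATAAA lie 29 bases before the start of GDF15 and 31 before that of GADD45B. Only these exact letters were searched, so near matches, such as tatataag close to the start of PLK2, are not marked. BTG2 and PLK2 hold TGACG 210 and 77 bases before their starts. GADD45B also holds CACGTG at 168 bases and CCAAT at 82 and 45 bases, GDF15 holds CCAAT at 103 bases and BTG2 at 76 bases. The p53 response element, a 20-letter motif allowed 3 mismatches and no spacer, matched 4.36% of all promoters and 0 of the 7 members' windows. No match says only that the letters are not in this window.

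**Figure D1:**
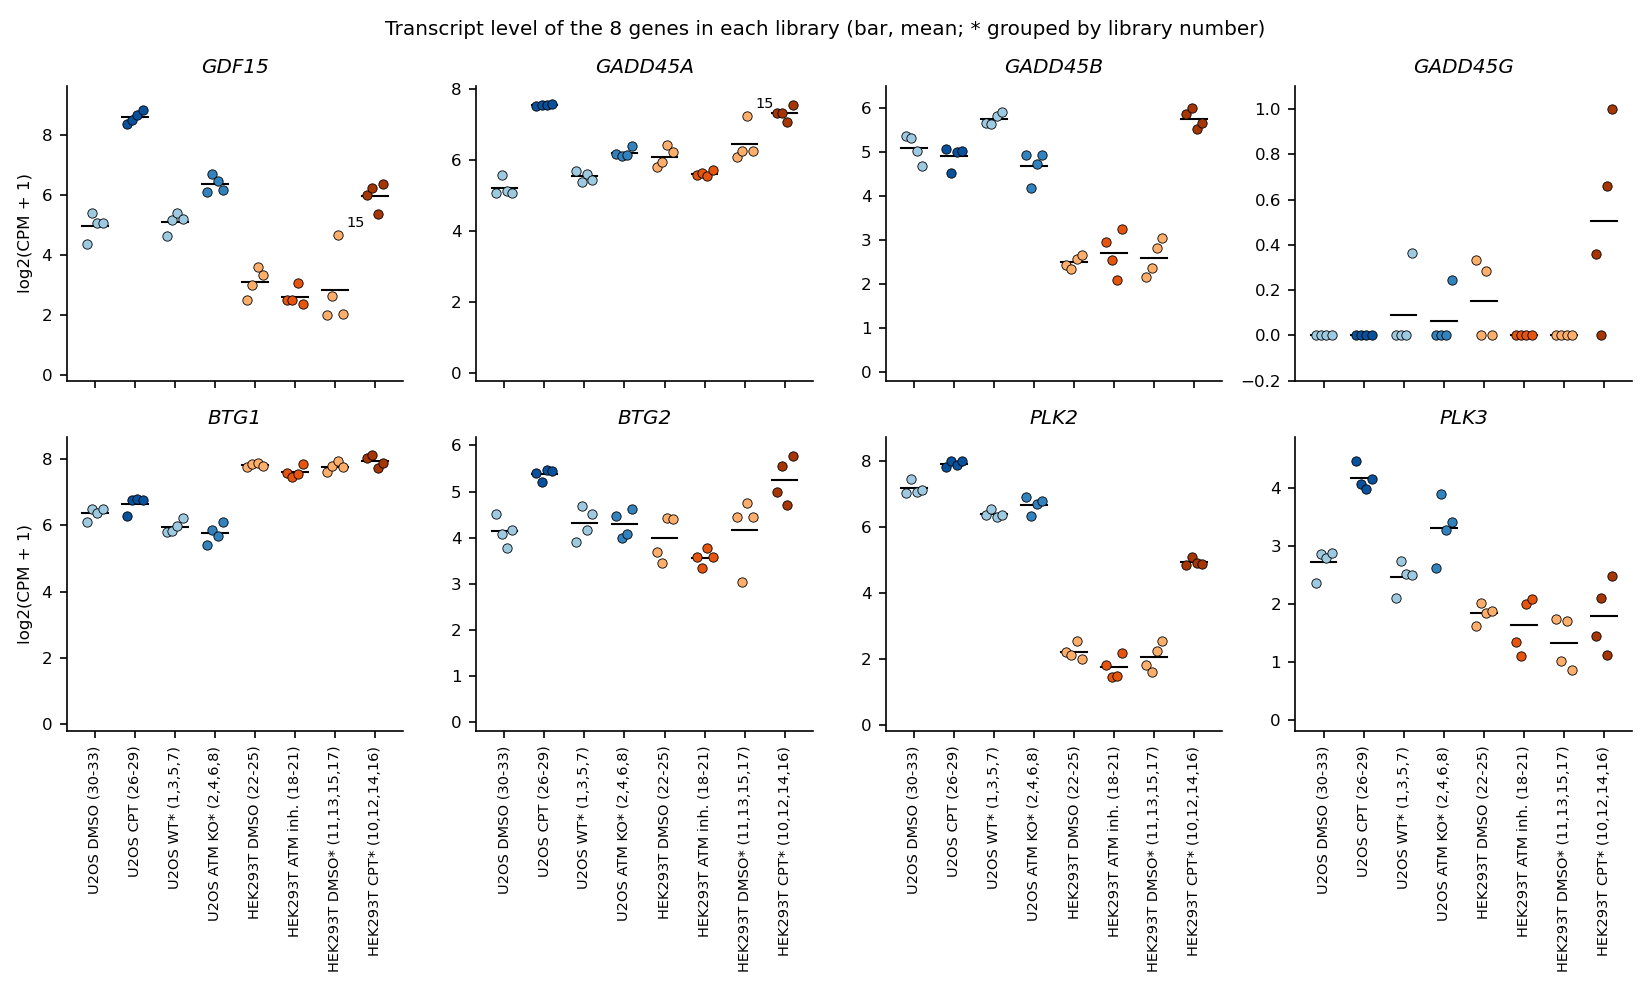
Level of each of the 8 genes in every library, as log2(CPM + 1) on the y axis, with 1 point per library and a bar for the mean of the 4 points (groups marked with an asterisk were formed by library number). GDF15 stands highest in the 4 U2OS CPT libraries, PLK2 is higher in each library of U2OS profile than in each of HEK293T profile, with libraries 10, 12, 14 and 16 in between, GADD45B separates the lines except in those libraries, and library 15 stands above its group for GDF15 and GADD45A.

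The members called in each CPT comparison were all higher, and GDF15 and BTG2 were called in both. Called members moved in both directions in U2OS ATM KO by number, and members did not pass the test with the ATM inhibitor. A gene was called when its absolute log2 fold change was over 1 and its adjusted p was under 0.05, with edgeR's quasi-likelihood test and Benjamini-Hochberg adjustment over all genes tested. In U2OS CPT, 4 of the 7 members tested were called, all higher, against 13.5% of all genes (7.97% higher and 5.5% lower). Their median log2 fold change was 1.25, and that of all genes 0.01. In HEK293T CPT by number, 5 of 8 were called, all higher, against 14% of all genes (9.52% higher and 4.45% lower), or 4 of 7 without GADD45G, which rests on 10 counts. The median of those 7 was 1.10, and it was 1.59 over 8 with GADD45G set against a floor of 3 counts in its controls, beside 0.04 for all genes. In U2OS ATM KO by number, 2 of 7 were called, 1 in each direction, against 5.24% of all genes (2.8% higher and 2.44% lower). With the ATM inhibitor, 0 of 7 were called against 0% of all genes, and 0 were called with DESeq2 or edgeR's likelihood ratio test. By an unadjusted p under 0.05, 3 of 7 passed there, against 5.53% of all genes. By adjusted p alone, the members past it were 5 of 7 in U2OS CPT (31.9% of all genes), 6 of 8 in HEK293T CPT by number (34.9%), 4 of 7 in U2OS ATM KO by number (13%) and 0 of 7 with the inhibitor (0.00543%).

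**Figure D2:**
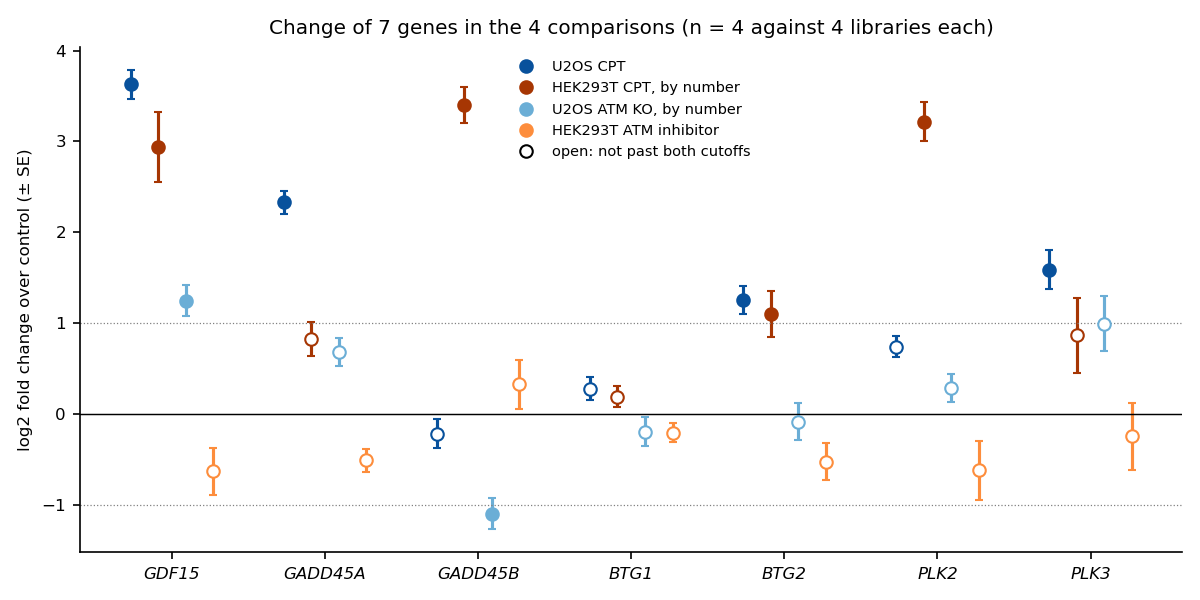
Log2 fold change over control (y axis) of the 7 genes tested in all 4 comparisons, with bars for the SE derived from the test statistic (n = 4 against 4 libraries). Filled points passed both cutoffs and dotted lines mark a log2 fold change of 1 in either direction; GDF15 runs from 3.63 in U2OS CPT to −0.63 with the ATM inhibitor, and GADD45B from 3.40 in HEK293T CPT by number to −1.10 in U2OS ATM KO by number.

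With the labels as deposited, the sides of both regrouped comparisons mix the profiles of the 2 lines. The libraries labelled HEK293T CPT then differed from those labelled HEK293T DMSO (3, 5, 7, 17 and 22 to 25) in 3 members, where 1193 genes were called over all genes tested. The log2 fold change was 2.21 for GDF15 (adjusted p = 0.0443), 1.57 for PLK3 (0.0461) and −1.55 for BTG1 (0.0461). GADD45A (0.32), GADD45B (0.12), BTG2 (0.07) and PLK2 (1.62) did not pass. The libraries labelled U2OS ATM KO were compared with those labelled U2OS wild type (1, 11, 13 and 15). No member passed, where 631 genes were called over all genes tested. There GDF15 had 2.32 (adjusted p = 0.0616, the smallest of the members), GADD45A 0.92, GADD45B 2.04, BTG1 0.49, BTG2 1.21, PLK2 0.69 and PLK3 0.45. Directions given below for libraries 1 to 17 therefore hold for the grouping by number. The share of all genes called is not given here for the labels as deposited, so the counts of members there cannot be weighed against it.

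GDF15, the secreted cytokine, had the largest increase of the members in U2OS CPT. It stood at 331, 363, 402 and 455 CPM in the CPT libraries and at 19.5, 40.8, 32.5 and 32.6 CPM in DMSO. The groups lay far apart, and the log2 fold change was 3.63 (SE 0.16, adjusted p = 8.28e-18), or 12.4-fold. In these bulk samples, a change in the cells that express a gene cannot be told apart from a change in RNA per cell.

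In libraries 10, 12, 14 and 16, GDF15 stood at 62.2, 73.4, 39.7 and 80.4 CPM. Libraries 11, 13, 15 and 17 held 2.98, 5.18, 24.0 and 3.02 CPM. The groups did not overlap, although library 15 stood well above the other 3 controls. GDF15 rose by 2.94 (SE 0.38, adjusted p = 2.91e-06), and by 4.12 without library 15 (adjusted p = 3.34e-09). Library 15 was also the highest control for GADD45A and in the summed level of 20 p53 targets (1561 CPM against 1178 to 1210), and what set it apart was not tested.

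In libraries 2, 4, 6 and 8, GDF15 stood at 68.0, 104, 87.4 and 71.0 CPM, and in 1, 3, 5 and 7 at 23.9, 35.0, 41.2 and 35.5 CPM. All 4 even-numbered libraries lay above all 4 odd-numbered ones, with a log2 fold change of 1.25 (SE 0.17, adjusted p = 1.64e-07). With the ATM inhibitor, GDF15 was at 4.55, 4.56, 7.41 and 4.13 CPM against 4.65, 6.87, 11.05 and 9.07 CPM in DMSO. These groups overlapped, and the difference of −0.63 (95% interval −1.16 to −0.10) did not pass (adjusted p = 0.878).

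GADD45A, the p53-inducible member of its family, rose in U2OS CPT with little spread between libraries. The CPT libraries held 181, 184, 184 and 189 CPM and the DMSO libraries 32.4, 47.0, 34.1 and 32.8 CPM. The log2 fold change was 2.33 (SE 0.13, adjusted p = 1.92e-15), or 5.04-fold. In libraries 10, 12, 14 and 16 it stood at 158, 159, 133 and 187 CPM, against 66.7, 74.9, 149.65 and 74.6 CPM in 11, 13, 15 and 17. Only library 15 made these groups overlap. The change of 0.83 (SE 0.18, adjusted p = 0.00119) missed the fold cutoff, and it was 1.17 without library 15 (adjusted p = 2.84e-06), past both cutoffs.

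In U2OS ATM KO by number, GADD45A stood at 71.4, 67.6, 69.6 and 82.9 CPM against 51.0, 40.7, 47.8 and 42.5 CPM. The groups did not overlap, and the change of 0.68 (SE 0.16) had an adjusted p of 0.00130 but lay under the fold cutoff. After the inhibitor, GADD45A was at 46.3, 48.7, 45.9 and 51.3 CPM against 54.6, 60.1, 84.9 and 73.7 CPM. All treated libraries were lower than all controls, yet the difference of −0.51 (95% interval −0.76 to −0.25, unadjusted p = 2.8e-04) did not pass after adjustment (0.690). Over the alternatives, its adjusted p ran from 0.0266 (no filter on low counts) to 1. It was 0.0340 without library 21, and the log2 fold changes of −0.52 and −0.54 in those cases lay under the fold cutoff. The 2 highest of those controls, libraries 24 and 25, also had the highest summed p53 targets of the 8 libraries (1363 and 1297 CPM against 1015 to 1089).

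GADD45B, the member known as an early target of NF-κB and TGF-β, rose in HEK293T CPT by number and did not pass in U2OS CPT. In libraries 10, 12, 14 and 16 it stood at 57.7, 63.3, 44.97 and 49.6 CPM, against 3.45, 4.18, 6.10 and 7.26 CPM in 11, 13, 15 and 17. The groups lay far apart, and the log2 fold change of 3.40 (SE 0.20, adjusted p = 1.86e-11), or 10.6-fold, was the largest of the members in that comparison apart from GADD45G. In U2OS CPT it was at 33.001, 21.96, 31.02 and 31.5 CPM against 40.7, 39.4, 31.6 and 24.9 CPM. These groups overlapped, with a difference of −0.22 (95% interval −0.55 to 0.11, adjusted p = 0.331).

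In U2OS ATM KO by number, GADD45B fell from 50.2, 49.2, 56.0 and 59.8 CPM in libraries 1, 3, 5 and 7 to 29.7, 17.2, 25.5 and 29.6 CPM in 2, 4, 6 and 8. The groups did not overlap and the log2 fold change was −1.10 (SE 0.17, adjusted p = 3.05e-06), the opposite direction to GDF15 in the same libraries. After the inhibitor it was at 3.26 to 8.55 CPM against 4.07 to 5.34 CPM, a difference of 0.33 (95% interval −0.22 to 0.87, adjusted p = 0.943).

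GADD45G was close to absent, with 14 counts in all and 0 in 25 of 32 libraries. Libraries 10, 12, 14 and 16 held 1, 0, 2 and 7 of them, and 11, 13, 15 and 17 held 0. Against a floor of 3 counts over the control group this is at least 4.21-fold higher, with an adjusted p of 0.0122. The call was lost with DESeq2 (adjusted p = 0.0576) and without library 16, which left 3 counts. In the other 3 comparisons GADD45G did not pass the filter on low counts.

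Of the antiproliferative adaptors, BTG1 was called in 0 of the 4 comparisons with edgeR or DESeq2, and it had an unadjusted p under 0.05 in 1 of them (0.0400, U2OS CPT, where 41.1% of all genes did). It had log2 fold changes of 0.28 in U2OS CPT (95% interval 0.01 to 0.55, adjusted p = 0.102), 0.19 in HEK293T CPT by number, −0.19 in U2OS ATM KO by number and −0.21 with the inhibitor. Without library 26, BTG1 had 0.40 in U2OS CPT (adjusted p = 0.0162), still under the fold cutoff. Its libraries ranged from 76.1 to 110.2 CPM in U2OS CPT and from 67.8 to 89.2 CPM in U2OS DMSO. The 4 groups of HEK293T profile held 172 to 276 CPM.

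BTG2 rose in both CPT comparisons. In U2OS it stood at 41.3, 35.9, 43.0 and 42.6 CPM after CPT and at 21.8, 16.02, 12.7 and 17.1 CPM in DMSO. The groups did not overlap, and the log2 fold change was 1.25 (SE 0.16, adjusted p = 1.44e-07). In libraries 10, 12, 14 and 16 it stood at 30.7, 46.3, 25.2 and 53.3 CPM, against 20.99, 7.19, 26.03 and 20.8 CPM in 11, 13, 15 and 17. Library 15 overlapped library 14, and the log2 fold change was 1.10 (SE 0.26, adjusted p = 0.00186). That change fell under the fold cutoff without library 16 (0.90) and without library 13 (0.83), with adjusted p still at 0.0119 and 0.00181. BTG2 differed by −0.08 in U2OS ATM KO by number (95% interval −0.50 to 0.33, adjusted p = 0.865) and by −0.52 with the inhibitor (95% interval −0.94 to −0.10, adjusted p = 0.855).

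PLK2, a Polo-like kinase with a role in centriole duplication, was abundant in U2OS cells and low in HEK293T cells. After CPT the U2OS libraries held 221, 251, 231 and 253 CPM, and the DMSO libraries 129, 174, 131 and 137 CPM. The groups did not overlap, but the change of 0.74 (SE 0.12, adjusted p = 6.52e-06) stayed under the fold cutoff. In libraries 10, 12, 14 and 16 PLK2 stood at 27.8, 32.6, 29.01 and 28.1 CPM, against 2.51, 2.01, 3.66 and 4.84 CPM in 11, 13, 15 and 17. The groups lay far apart, and the log2 fold change was 3.22 (SE 0.21, adjusted p = 1.77e-10), or 9.29-fold. Even so, the treated level remained under the lowest U2OS library of any group, at 77.0 CPM.

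Because PLK2 and GADD45B are higher in U2OS cells, markers of that line were read beside their rise in libraries 10, 12, 14 and 16. Of the 6 markers, 5 were tested and 4 were called, all higher, where 9.52% of all genes were called higher. The summed level of the 6 was 151 to 251.05 CPM against 59.5 to 72.7 CPM in libraries 11, 13, 15 and 17. The U2OS DMSO libraries held 2363 to 3137 CPM. The called markers were ANXA1 (log2 fold change 2.82), CD44 (2.51), LGALS1 (1.94) and CLU (1.58), and CAV1 was higher by 0.94, under the fold cutoff. ANXA1 stood at 29.3 ± 4.54 CPM against 4.18 ± 0.597 CPM (SD, n = 4), beside 160.2 ± 22.3 CPM in U2OS DMSO. CD44 stood at 0.640 ± 0.360 CPM against 0.102 ± 0.203 CPM, from 11 and 2 counts in all, beside 67.3 ± 7.50 CPM in U2OS DMSO. S100A6, with 2 and 1 counts, was not tested, and it stood at 146.8 ± 20.9 CPM in U2OS DMSO. The part of these markers in the rise of PLK2 and GADD45B was not tested. PLK2 differed by 0.29 in U2OS ATM KO by number (95% interval −0.02 to 0.59, adjusted p = 0.229) and by −0.62 with the inhibitor (95% interval −1.28 to 0.04, adjusted p = 0.901).

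PLK3, the stress-activated relative, rose in U2OS CPT. It stood at 21.2, 15.7, 14.7 and 16.8 CPM against 4.13, 6.27, 5.88 and 6.30 CPM in DMSO. The groups did not overlap, and the log2 fold change was 1.59 (SE 0.21, adjusted p = 5.13e-07). In U2OS ATM KO by number it was at 5.10, 13.9, 8.70 and 9.62 CPM against 3.29, 5.68, 4.72 and 4.62 CPM. Library 2 overlapped the controls, but it held 6 counts and library 1 held 4, near the floor of 3 counts. The change of 0.996 (SE 0.30, adjusted p = 0.0196) lay just under the fold cutoff, which it passed without library 2, 3, 6 or 8 (1.09, 1.11, 1.06 and 1.002). In HEK293T CPT by number PLK3 was near the floor, at 1.16 to 4.57 CPM against 0.81 to 2.35 CPM, and the difference of 0.87 (95% interval 0.01 to 1.72, adjusted p = 0.108) did not pass. With the inhibitor it was −0.24 (95% interval −0.9996 to 0.51, adjusted p = 0.973).

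The basal levels of most members differed between the lines. Between U2OS DMSO (30 to 33) and HEK293T DMSO (22 to 25), 5 of the 7 members tested were called, against 39.9% of all genes (21.8% higher in U2OS and 18.1% lower). PLK2 was 38.1-fold higher in U2OS, with 129 to 174 CPM against 2.94 to 4.76 CPM (log2 fold change 5.25, SE 0.17, adjusted p = 1.56e-23). GADD45B was higher by 2.85, GDF15 by 1.96 and PLK3 by 1.11, while BTG1 was lower by −1.44, all past both cutoffs. GADD45A was lower by −0.91 (adjusted p = 1.37e-06), under the fold cutoff, and BTG2 differed by 0.11 (95% interval −0.30 to 0.53). Over the 8 groups, the order of mean levels of PLK2 ran from U2OS CPT (239 CPM) through U2OS DMSO (143), libraries 2, 4, 6 and 8 (102), libraries 1, 3, 5 and 7 (82.3) and libraries 10, 12, 14 and 16 (29.4) to 3 groups of HEK293T profile between 2.39 and 3.66 CPM. Those 3 groups overlapped each other, as did libraries 2, 4, 6 and 8 with 1, 3, 5 and 7, and no other neighbours in that order did. For GDF15, U2OS CPT was the only group that did not overlap its neighbour in the order.

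Whether CPT moved the members differently in the 2 lines was tested with an interaction term over libraries 26 to 33 and 10 to 17. The doses differed (0.4 against 0.1 μM) and each line was treated in an experiment of its own, so line, dose and experiment cannot be told apart. The HEK293T side also rests on the grouping by number. Of 7 members, 3 passed both cutoffs, against 11.9% of all genes (5.15% with the higher log2 fold change in U2OS and 6.71% with the lower). The change of GADD45A was larger in U2OS by 1.50 (SE 0.23, adjusted p = 3.01e-06). The changes of GADD45B and PLK2 were smaller in U2OS, with differences of −3.61 (SE 0.26, adjusted p = 8.94e-15) and −2.47 (SE 0.23, adjusted p = 1.85e-11). For GDF15 the difference was 0.68 (95% interval −0.15 to 1.51, adjusted p = 0.273), and it changed sign without library 15 (−0.48, adjusted p = 0.329). BTG1 (0.10, 95% interval −0.26 to 0.46), BTG2 (0.14, −0.51 to 0.79) and PLK3 (0.71, −0.24 to 1.65) did not pass. GADD45G, with 0 counts in all 8 U2OS libraries, was left out.

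Other targets of p53 and of ATF4 were counted beside the members. Of 20 p53 targets, 19 were tested in U2OS CPT and 13 were called, all higher, with a median log2 fold change of 1.44, where 7.97% of all genes were called higher and the median of all genes was 0.01. They include CDKN1A, the CDK inhibitor p21 (2.24), RRM2B, a ribonucleotide reductase subunit (1.86), and FAS, a death receptor (2.76). In HEK293T CPT by number, 5 of 20 were called, all higher, beside 9.52% of all genes, with a median of 0.70, among them CDKN1A (2.17), TP53INP1 (2.53) and DDB2 (1.36). By adjusted p alone, 14 of the 20 were higher there and 2 lower, SESN2 (−0.45) and CCNG1 (−0.50), where 17.6% of all genes were higher and 17.3% lower. In U2OS ATM KO by number 0 of 19 were called (9 with an unadjusted p under 0.05, beside 25.4% of all genes), with a median of 0.25. By adjusted p alone, 4 were higher there, SESN2 (0.77), SESN1 (0.69), PHLDA3 (0.60) and ZMAT3 (0.46), and 1 was lower, CCNG1 (−0.62). Of all genes, 6.43% were higher and 6.56% lower by that measure. CDKN1A had 0.15 and GDF15 1.25. For the inhibitor, 0 of 20 were called (1 with an unadjusted p under 0.05, beside 5.53% of all genes), with a median of −0.12. Of the 12 genes of the ATF4 branch, 8 were called in HEK293T CPT by number, all lower, where 4.45% of all genes were called lower, with a median of −1.90. They include ATF4 itself (−1.87), the asparagine synthetase gene ASNS (−3.18) and the cystine transporter gene SLC7A11 (−3.47). GDF15 rose in the same libraries, and the part of either list in its change was not tested. In U2OS CPT, ATF3, a stress transcription factor, rose (2.38) while SLC7A11 (−1.89) and DDIT4 (−1.37) fell, and the other 9 were not called. In U2OS ATM KO by number and with the inhibitor, 0 of 12 were called, and 5 had an unadjusted p under 0.05 in each, where 25.4% of all genes did in the former and 5.53% in the latter. ASNS had the smallest adjusted p in the former (0.0260).

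**Figure D3:**
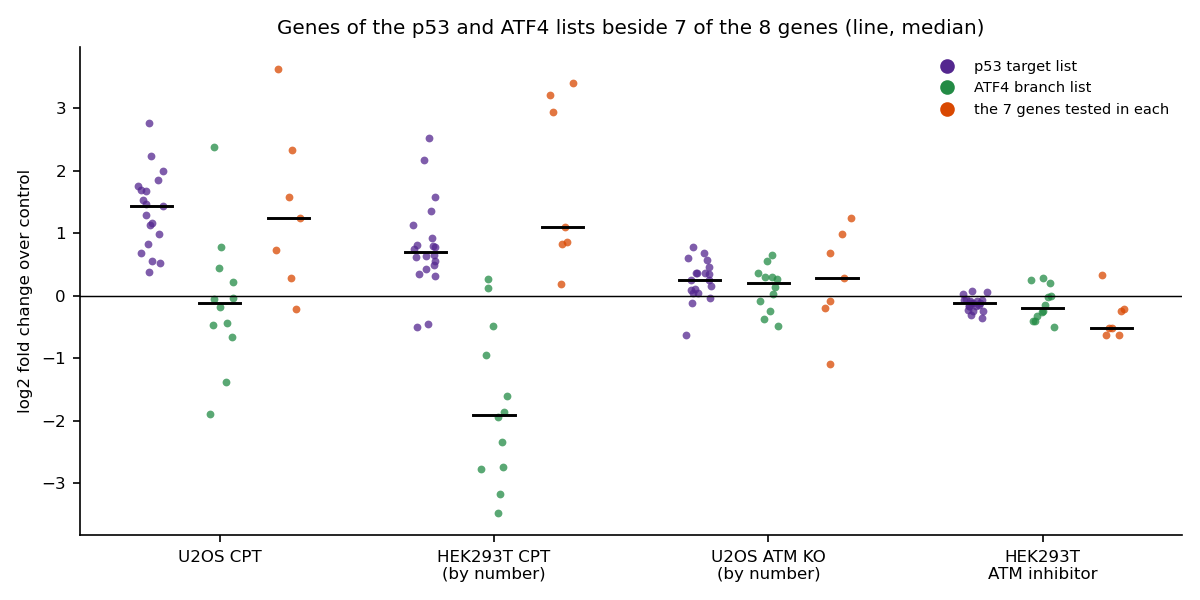
Log2 fold change over control (y axis) of each gene of the p53 list, the ATF4 list and the 7 members tested in all 4 comparisons, with 1 point per gene and a line at the median of each list. In HEK293T CPT by number the ATF4 list has a median of −1.90 and the p53 list of 0.70, and in U2OS CPT the p53 list has a median of 1.44.

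Relatives and binding partners of the members were counted beside the shares of all genes called, 13.5% in U2OS CPT, 14% in HEK293T CPT by number, 5.24% in U2OS ATM KO by number and 0% with the inhibitor. Of 7 family relatives (BTG3, BTG4, TOB1, TOB2, PLK1, PLK4, PLK5), 5 were tested in U2OS CPT and 1 was called. It was PLK1, the mitotic Polo-like kinase, which fell by 1.47 (adjusted p = 1.55e-10) while PLK3 rose, from 79.9 to 104 CPM in DMSO to 29.2 to 33.6 CPM. In HEK293T CPT by number PLK1 was higher by 0.68 (adjusted p = 2.32e-04), under the fold cutoff. In the other 3 comparisons 0 relatives were called, of 6, 5 and 6 tested. Of 15 partners and effectors, 14 were tested in each comparison, and MAP2K6, a kinase upstream of p38 in the pathway that GADD45 proteins activate through MAP3K4, was called in 3. Of those 14, 1 was called in U2OS CPT, 2 in HEK293T CPT by number, 1 in U2OS ATM KO by number and 0 with the inhibitor. MAP2K6 fell by 5.64 in U2OS CPT (20.2 ± 3.32 CPM in DMSO against 0.375 ± 0.326 CPM after CPT, SD, n = 4, the latter from 4 counts in all), by 1.98 in HEK293T CPT by number and by 1.15 in U2OS ATM KO by number. PRMT1, the methyltransferase that BTG proteins bind, was also called, with −1.003 in HEK293T CPT by number.

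For each member called at least once and tested in all 4 comparisons, the genes with the most similar set of 4 log2 fold changes were read off among 8367 genes, by the root mean square difference. For GDF15 they were CDKN1A (difference 1.005 on the log2 scale), HBEGF (1.27) and GADD45A (1.27). BTG2 lay nearest to CITED2 (0.16), ANKRD42 (0.25) and STK17A (0.27), and PLK3 nearest to SDC4 (0.18), EPAS1 (0.27) and ZMAT3 (0.29). GADD45A lay nearest to PURPL (0.27), NABP1 (0.27) and SDC4 (0.28). GADD45B lay nearest to IGF2 (0.59), IER3 (0.64) and SNORA79B (0.71), and PLK2 to ANXA1 (0.32), PCDH17 (0.54) and MAP1A (0.62). These are descriptions over 4 comparisons and carry no test.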

How the data were processed

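Libraries were prepared from HEK293T and U2OS RNA with Lexogen's QuantSeq 3′ mRNA kit (FWD). The authors deposited raw counts of each gene in 32 libraries, and name Lexogen's FWD UMI pipeline (version 2.3.1), run at BlueBee, as their source. The genome build, annotation and use of strand are not given in the sources used here. Of the rows, 5 pipeline summaries (10.9% to 40.6% of a library's total) and 92 spike-in controls were left out, which kept 60107 genes, and 56104 of their identifiers matched symbols of GENCODE 29. Columns left unused numbered 0.

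Groups followed library numbers, because the profiles of libraries 1 to 17 contradict the cell line of their labels; the labels as deposited were an alternative. The members, gene lists and grouping were chosen with earlier results of these data known. The genes named are the 8 members, called genes of the lists and, for members called in 1 of the 4 comparisons or more, the 3 genes with the most similar log2 fold changes; other list genes named were chosen after their values were seen.

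Each comparison was fitted apart in R 4.3.3 by the quasi-likelihood test of edgeR 4.0.16 after TMM scaling. A gene had to exceed 1 count in 2 or more of the libraries compared, and p-values were adjusted over all genes tested (Benjamini-Hochberg). The study used these cutoffs with the likelihood ratio test. That test, DESeq2 1.42.0, RLE size factors, other filters, 1 fit over all 32 libraries, no fold cutoff and leaving out each library in turn were alternatives. Levels are CPM after TMM scaling over all 32 libraries. The SE is the absolute log2 fold change divided by the square root of the test's F statistic. Intervals are 95% intervals on the log2 scale from that SE and the degrees of freedom of the fit. All 48 pairs of libraries within groups differed beyond sampling noise (chi-square per degree of freedom 1.82 to 24.8). The study describes 4 independent repeats per experiment. The procedure was tested on simulated data. A further marker of U2OS cells is not reported here and was left out of the marker sums.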

Additional observations from a re-analysis of the deposited data

Results flagged for a closer look

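In groups of 4 libraries, 1 library stood apart from the other 3 by Dixon's criterion in 5 of 57 cases, where chance gives about 1 in 20. Library 15 held 24.0 CPM of GDF15 against 2.98 to 5.18 CPM in libraries 11, 13 and 17, and 149.65 CPM of GADD45A against 66.7 to 74.9 CPM. Its other members lay within or just above the range of those controls, with BTG2 at 26.03 CPM against 7.19 to 20.99 CPM, BTG1 at 239.9 against 192 to 216 CPM and PLK2 at 3.66 against 2.01 to 4.84 CPM. Among the ATM inhibitor libraries, library 20 held 7.41 CPM of GDF15 against 4.13 to 4.56 CPM. In U2OS DMSO, library 31 held 47.0 CPM of GADD45A against 32.4 to 34.1 CPM, and in U2OS CPT library 26 held 76.1 CPM of BTG1 against 107 to 110.2 CPM.

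The response to CPT differed between the lines for 3 members, against 11.9% of all genes, by both cutoffs. The test was the interaction test of edgeR (quasi-likelihood, Benjamini-Hochberg adjustment). As the log2 fold change in U2OS minus that in HEK293T by number, the difference was 1.50 for GADD45A, −3.61 for GADD45B and −2.47 for PLK2. The doses of CPT and the experiments also differed, so line, dose and experiment cannot be told apart.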

How the results depend on the processing

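Of 712 alternative values of the members' log2 fold changes, 679 kept their direction and their side of the cutoffs. The number of members called was 4 in U2OS CPT and 0 with the ATM inhibitor whichever library was left out. Leaving out 1 library gave 3 to 6 in HEK293T CPT by number, 2 to 3 in U2OS ATM KO by number, 5 to 6 between the lines in DMSO, and 3 for the interaction. The lowest, 3 in HEK293T CPT by number, came without library 16 (GADD45G and BTG2 lost). Adjusted p alone gave 4 in U2OS ATM KO by number. The labels as deposited gave 3 in HEK293T CPT by number and 0 in U2OS ATM KO by number, and reversed BTG1 in the former (−1.55) and GADD45B (2.04), BTG1 (0.49) and BTG2 (1.21) in the latter. These groups mix profiles of both lines, and the share of all genes called is not given for them here.

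Small, uncalled differences of BTG2 changed sign when 1 library was left out: from −0.25 to 0.051 in U2OS ATM KO by number (above 0 without library 3 or 6), from −0.056 to 0.27 between the lines in DMSO (below 0 without library 23 or 30) and from −0.043 to 0.42 in the interaction (below 0 without library 14 or 15). That of GDF15 in the interaction ran from −0.48 to 0.99, and was below 0 only without library 15.

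Over all genes, the filterByExpr filter of edgeR, which tests fewer genes, lowered the calls from 2569 to 1652 in U2OS CPT, from 2718 to 1461 in HEK293T CPT by number, from 974 to 644 in U2OS ATM KO by number and from 7872 to 5090 between the lines. Adjusted p alone raised them to 6091, 6785, 2415 and 12256, and from 2651 to 4544 in the interaction. With the ATM inhibitor the 0 calls became 2 with the likelihood ratio test or no filter, 1 in 1 fit over all libraries or by adjusted p alone, and 1 and 14 without libraries 18 and 21. The labels as deposited gave 1193 and 631 calls in the regrouped comparisons. No paired analysis was possible because the labels give no repeat number that groups share, and which libraries come from the same repeat is not given in the sources used here. At these depths, PLK3 in HEK293T cells and in libraries 1 and 2, and GADD45G, lie near the floor of 3 counts, and differences there may not be detectable.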
